A study of Mus musculus with 14 samples.

Results

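The comparison described here follows T cells of wild-type (WT) mice from an immature to a mature stage. It sets the 4 arrays of CD8+ lymphocytes from WT spleen against the 3 arrays of CD4+CD8+ lymphocytes from WT thymus, 7 of the 14 arrays in the series, chosen by their labelled tissue, genotype and sorted population. The other 7 arrays carry ENK KO samples of the same populations, and the study itself set WT against ENK KO within each tissue. The comparison across tissues joins the WT arms of both experiments. The ENK KO arrays were used here for a check of the values and for alternatives. All 7 WT samples were labelled C57BL/6, wild type and 7 months old, with no treatment named. The thymus group held replicates 7, 32 and 38 and the spleen group replicates 22, 34, 37 and 40. Replicates 7 and 22 were labelled female and the others male. Cells were sorted by flow cytometry, and RNA was labelled with an Affymetrix whole-transcript kit and read on 1 array per sample. The labels do not say outright that each number is a separate animal, so errors and p-values reflect how far these samples varied, which may be technical. They also give no gate beyond CD4 and CD8, so that the shares of naive and memory cells in the spleen group are unstated.

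CD4+CD8+ thymocytes rearrange the T cell receptor alpha chain and then wait for a weak signal from self peptide on MHC molecules. Cells that receive it and read MHC class I silence CD4, move to the thymic medulla, regain the capacity to leave, and circulate through spleen and lymph node as CD8+ T cells. Known landmarks of this path are the recombinase genes Rag1 and Rag2, which are shut off, Runx3, which silences CD4, and Klf2, which switches on genes for leaving the thymus and homing to lymph nodes.

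Values are log2 levels made with RMA, a method that corrects background, equalises array distributions and reduces each probe set's probes to a single value. All differences below are spleen minus thymus on that log2 scale, so that a difference of 1 is 2-fold. Values of single arrays follow the order 7, 32, 38 for thymus and 22, 34, 37, 40 for spleen. A gene was said to have risen or fallen only where it passed a test against a 2-fold difference (limma's treat, Benjamini-Hochberg adjusted over all 19937 genes, adjusted p under 0.05). Named genes were mostly the 3 members of each list with the largest differences in each direction, and others were chosen after their values were seen. Levels under 6.77, the 40th percentile of all WT values, are called low signal. A difference from or to such a level can understate a change. The pooled RNA of a sort does not tell fewer cells of a type from less RNA per cell.

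The sorted populations carried the markers of their labels. Cd4, the helper coreceptor, read 13.13, 12.94 and 13.01 in thymus and 6.75, 6.71, 6.62 and 6.92 in spleen. Every spleen array lay near or under the low-signal level. Rag1, a subunit of the recombinase, read 13.02, 12.83 and 12.85 and 6.24, 6.25, 6.23 and 6.31. The alpha and beta chains of CD8 stayed high, Cd8a at 12.97 ± 0.10 in thymus and 12.27 ± 0.23 in spleen (SD, n = 3 and n = 4), and Cd8b1 at 13.83 ± 0.02 and 13.31 ± 0.10. Of 13 measured markers of CD4+CD8+ thymocytes, 10 fell and the other 3 (Cd8a, Cd8b1 and Ptcra) did not pass. Of 10 measured CD8 T cell markers, 6 rose. Both marker lists were chosen with earlier results of these data known. Zbtb7b, the factor of the CD4 lineage, read 6.37 in thymus and 7.34 in spleen and did not pass. A sex label did not match its array. Xist, the RNA of the inactive X chromosome, read 5.90, 5.57, 5.90 and 5.67 in spleen and 13.28, 6.27 and 6.38 in thymus, so that spleen replicate 22, labelled female, was as low as the arrays labelled male. The Y-linked Uty read 9.69, 9.68, 9.71 and 9.53 in spleen, also with no difference for replicate 22. Without it, 509 genes rose and 433 fell by the 2-fold test, against 547 and 479 with it.

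The form of the values sets a limit on every comparison of the tissues. Among all 14 arrays, a pair of thymus arrays shared exactly equal values for 24.6% to 30.5% of the 28213 probe sets, and a pair of spleen arrays for 4.32% to 7.85%. In the 45 pairs of a thymus and a spleen array, 0 values were equal. Equal values are left by RMA's summary step among arrays summarised together, so that the 5 thymus and 9 spleen arrays appear to have been summarised in separate runs. Tissue and run then cannot be told apart. A shift that a run gives a probe set is shared by all arrays of a tissue and is absent from the spread between replicates. The repeated values also give SDs of 0.00, on all 3 WT thymus arrays for 3203 genes and on all 4 WT spleen arrays for 124.

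A yardstick for such shifts came from the 504 genes with 2 probe sets above the low-signal level. Their 2 differences between tissues lay a median of 0.22 apart, and 95% lay within 0.85. The test against 2-fold was used for every call because most genes had differed from 0 in an earlier analysis of these data. Tested against 0, 65.4% of genes passed (32.1% higher and 33.3% lower), with such shared shifts outside the error. Tested against 2-fold, 5.15% passed. With the spread between probe sets added to the error, an alternative chosen after the data were seen, 10.8% of genes passed against 0, among them all 1026 genes past the 2-fold test. Under that error 447 genes kept the 2-fold call, 246 higher and 201 lower. The smallest difference that kept it was 1.97 and the largest that lost it 2.83. Calls described below with a smaller difference than that kept minimum were therefore all lost under that error. Some with a larger difference were lost too, among them those of Mir128-2, H2-Ab1, Ms4a1, Fos, Car2, Alas2 and Arid5b.

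By the 2-fold test 547 genes rose (2.74%) and 479 fell (2.4%). Their array ranges did not overlap for any of the 1026, which was also true of 69.0% of all genes. The median difference over all genes was -0.0050, and 49.4% of genes had the higher mean in spleen. Both means were above the low-signal level for 366 of the risen and 336 of the fallen genes. In 164 of the risen genes the thymus mean alone was low, in 130 of the fallen genes the spleen mean alone was low, and both means were low in 17 and 13. Differences exceeded 3, that is 8-fold, in 94 risen and 60 fallen genes. The plot of group means shows the spread of both sets around the diagonal.

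**Figure D1:**
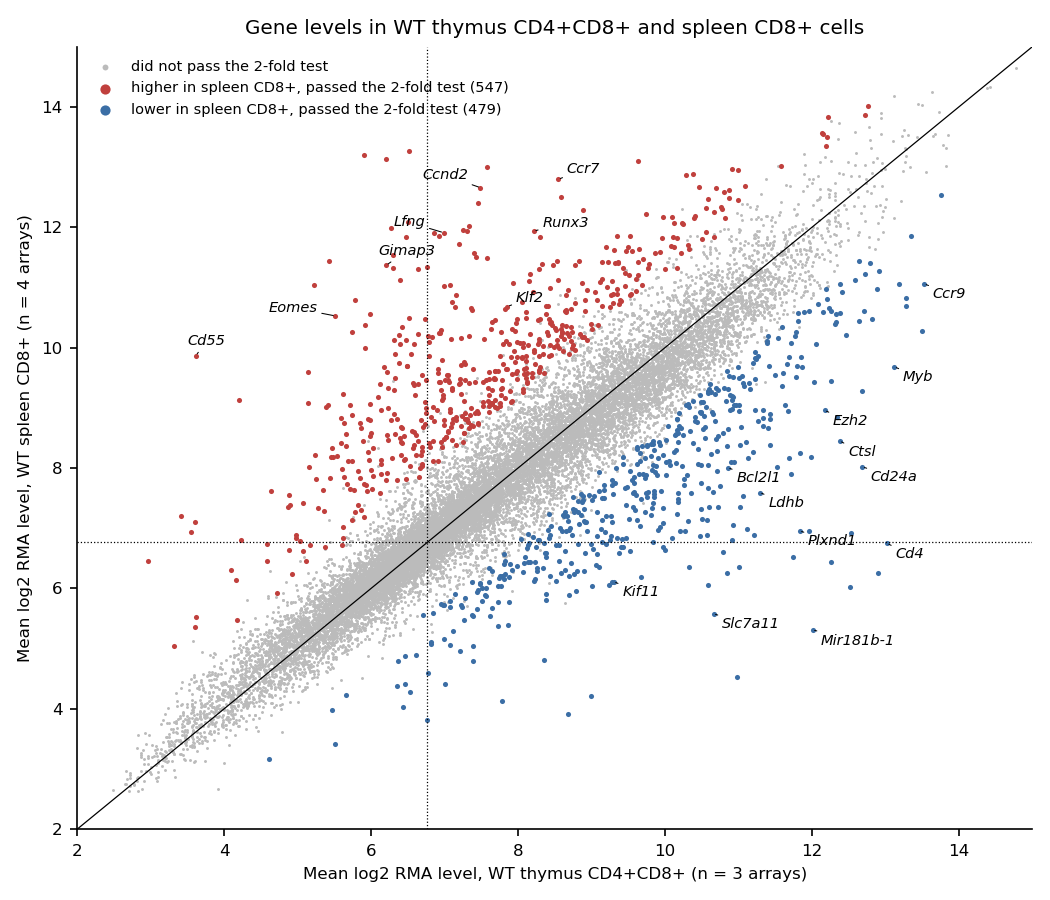
Mean log2 level of each of 19937 genes on 3 WT thymus CD4+CD8+ arrays (x axis) and 4 WT spleen CD8+ arrays (y axis). The 547 genes that rose lie above the diagonal and the 479 that fell below it, and dotted lines mark the low-signal level of 6.77.

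Genes were then grouped in 41 lists of regulators, signalling, surface, effector, growth, metabolic and structural genes, 1062 of whose genes were measured and 246 passed the 2-fold test. List counts are set beside the 2.74% of all genes that rose and the 2.4% that fell. The lists were chosen with earlier results of these data known, so their shares are a description and not an independent test.

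**Figure D2:**
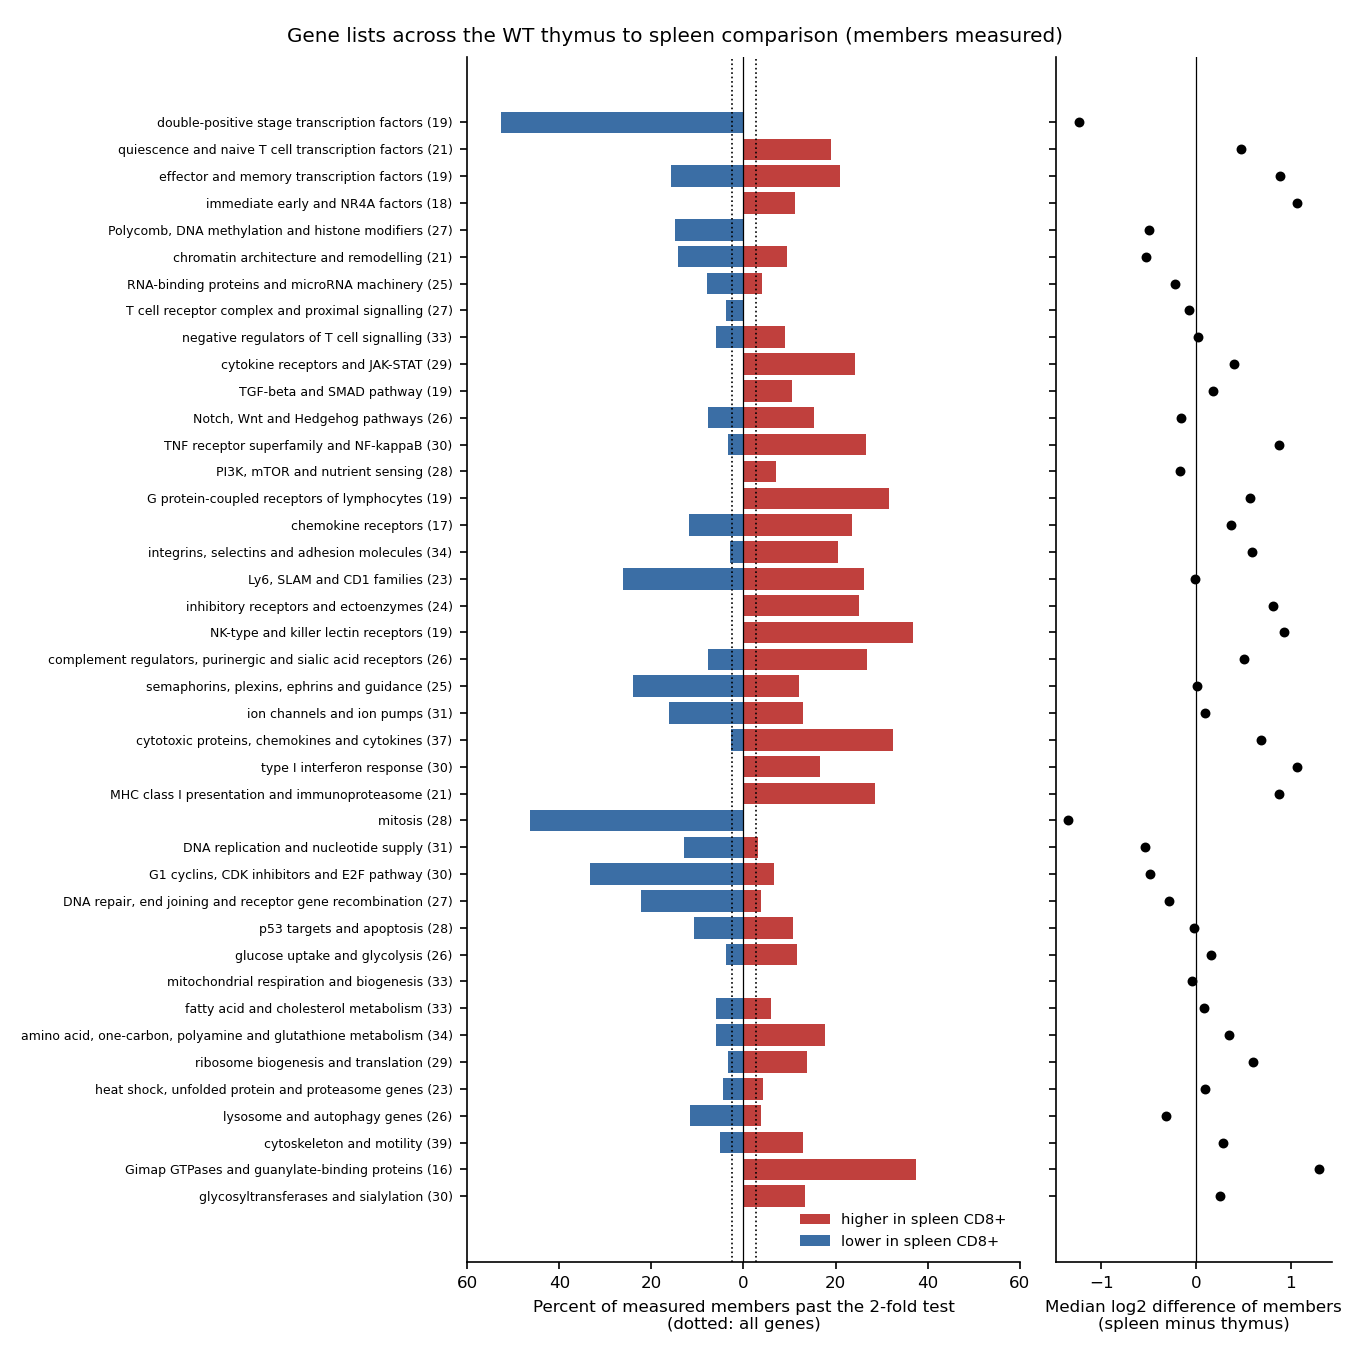
Left, percent of the measured members of each list that rose (right of 0) or fell (left of 0) by the 2-fold test, with the shares of all genes as dotted lines. Right, the median log2 difference of the list. Members of the lists of CD4+CD8+ stage factors and of mitosis genes fell most often, and no member of the respiration list passed.

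The list of transcription factors that run the CD4+CD8+ stage, which also held the signalling protein Themis, had the largest share of members that fell among the 41 lists. Of 19 measured, 10 fell, 0 rose, and the median difference was -1.24. Ets2, a factor of the ETS family, read 12.41, 12.26 and 12.38 in thymus and 8.76, 9.16, 8.85 and 8.64 in spleen. It fell by 3.50 ± 0.12 (SE). Myb, which sustains survival of CD4+CD8+ cells, read 13.07, 13.16 and 13.15 and 9.62, 10.35, 9.46 and 9.31 and fell by 3.44 ± 0.23. Its spleen arrays were more spread than its thymus arrays, with replicate 34 the highest, and all lay well below thymus. Sox4, an HMG-box factor, fell by 3.19 from 10.32 to 7.13. The other members that fell were Tcf4, Gfi1, Tcf12, Runx1, Bcl11b, Satb1 and Themis, with differences between -2.23 and -1.22. Themis is not a transcription factor. Satb1, a chromatin organiser, lost its call without any of 5 of the 7 arrays, with differences of -1.20 to -1.23. Gata3 (-0.82) and Id3 (-1.25) had lower means without passing.

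Factors of quiescent, naive cells rose in some cases and fell in none. Of 21 measured, 4 rose (19.0%, against 2.74% of all genes), 0 fell and the median difference was 0.47. Runx3, the factor that silences CD4 and sets the cytotoxic lineage, read 8.19, 8.30 and 8.16 in thymus and 11.73, 11.87, 12.07 and 12.10 in spleen, a rise of 3.72 ± 0.10 or 13.2-fold (adjusted p = 2.3e-06 in limma's test against 2-fold). Klf2, which drives S1pr1 and other genes of egress and homing, read 7.70, 7.86 and 8.01 and 10.64, 10.65, 10.81 and 10.65 and rose by 2.83 ± 0.08. Bach2, a repressor that holds back effector fate, rose by 2.73 from 8.20 to 10.93. Foxo1, which acts upstream of Klf2 and the interleukin-7 receptor, rose by 2.17 from 9.50 to 11.67. The 4 genes sat above the low-signal level in both tissues. Klf7 (-0.89), Btg2 (-0.79) and Foxo3 (-0.63) had lower means in spleen and did not pass.

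Factors of effector and memory cells split. Of 19 measured, 4 rose and 3 fell, with a median difference of 0.89. Eomes, a T-box factor of memory CD8 and natural killer cells, read 5.49, 5.53 and 5.53 in thymus, low signal, and 10.51, 10.49, 10.82 and 10.30 in spleen. Tbx21, the related factor T-bet, read 6.49, 6.49 and 6.49 and 9.41, 9.58, 10.12 and 9.65. Hopx rose by 3.24 and Bhlhe40 by 2.31, both from low signal in thymus. Bcl6, a repressor of effector differentiation, fell by 2.79 from 10.90 to 8.10. Ikzf2 (Helios) fell by 2.55 and Zeb1 by 1.20, and the Zeb1 call was lost without thymus replicate 32 (adjusted p = 0.068 in limma).

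Immediate early genes, the rapid targets of receptor signals and of cell handling, were mostly higher in spleen. Of 18 measured, 15 had the higher mean there and 2 rose, with a median difference of 1.06. Junb read 9.44, 8.90 and 9.10 in thymus and 11.29, 11.67, 11.52 and 11.20 in spleen and rose by 2.27 ± 0.16. Fos rose by 1.98 ± 0.22, but its call was lost without any of 6 of the 7 arrays. Egr2 (-0.41) and Egr1 (0.19) did not pass. The part of dissociation and sorting in these levels was not tested.

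Chromatin genes fell more often than they rose. In the list of Polycomb, DNA methylation and histone modifiers, 4 of 27 fell and 0 rose. Ezh2, the methyltransferase that Polycomb uses to silence genes, read 12.11, 12.19 and 12.23 in thymus and 8.97, 8.81, 8.89 and 9.16 in spleen and fell by 3.22 ± 0.08. Its paralogue Ezh1 went the other way in mean, from 9.56 to 10.34, without passing. Nsd2, a histone methyltransferase, fell by 1.64 and Uhrf1, which guides DNA methylation at replication, by 1.54. Cbx7, a Polycomb subunit, had a difference of 1.42 that did not pass. Among chromatin architecture genes, 3 of 21 fell (Top2a, Hmgb1 and Satb1) and 2 rose. Chd7, a chromatin remodeller, rose by 3.54 ± 0.16, with 8.39, 8.16 and 8.35 in thymus and 11.75, 12.18, 11.95 and 11.47 in spleen. Arid5b rose by 1.97.

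RNA-binding proteins changed in few cases, but by much. Of 25 measured, 2 fell and 1 rose. Arpp21, an RNA-binding protein that is a known mark of CD4+CD8+ thymocytes, fell by 6.50. Hnrnpll, a regulator of Ptprc splicing, fell by 1.92. Samhd1, an enzyme that hydrolyses deoxynucleotides, read 6.47, 6.47 and 6.47 in thymus and 11.77, 11.65, 11.83 and 12.08 in spleen and rose by 5.36. Of the microRNA machinery, Dicer1 (-0.10) and Drosha (-0.10) did not pass.

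MicroRNAs are short RNAs that pair with target transcripts through a seed, bases 2 to 8 of the mature strand. The miR-181 family is known to lower the signal threshold of thymocytes. The array's probe sets read transcripts of a microRNA gene and not the mature strand. Of 287 microRNA genes measured, 167 had low means in both tissues, 8 fell (2.79%) and 2 rose (0.697%). Of the 287, 261 matched a mature sequence in RefSeq (GRCm38.p6). The 6 measured miR-181 genes encode 4 guide strands that share the seed, shown in capitals, because the family divided by gene location while the seed stayed the same:
mmu-miR-181a-5p: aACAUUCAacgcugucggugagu
mmu-miR-181b-5p: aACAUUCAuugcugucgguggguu
mmu-miR-181c-5p: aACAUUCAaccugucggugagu
mmu-miR-181d-5p: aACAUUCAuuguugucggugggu

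The pair Mir181a-1 and Mir181b-1 lies on chromosome 1, at chr1:137966468-137966490 and chr1:137966650-137966673 for the strands above (plus strand). Mir181b-1 read 11.69, 12.08 and 12.27 in thymus and 5.61, 5.04, 5.17 and 5.42 in spleen and fell by 6.70 ± 0.18. Mir181a-1 read 8.23, 8.40 and 9.40 and 3.89, 3.94, 3.91 and 3.91 and fell by 4.76 ± 0.26. Every spleen array was far into low signal for both. The chromosome 2 pair, Mir181a-2 and Mir181b-2, encodes the same mature strands and fell by 1.58 and 1.92. The Mir181a-2 call was lost without any of 4 of the 7 arrays. The chromosome 8 pair did not pass, with Mir181c at -0.28 and Mir181d at 0.31, and both read between 8.04 and 8.76 in the means of either tissue. The same seed was thus carried by genes that fell and genes that did not.

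Mir181a-2 and Mir181b-2 lie within Nr6a1, whose difference of -0.45 did not pass. Among the other microRNA genes that fell were 3 that lie within measured genes. Mir350 fell by 3.54, from 8.12, 8.55 and 8.38 to 4.84, 4.44, 4.84 and 5.12, and lies within Cep170, which fell by 2.39. Mir128-2 fell by 2.17 and lies within Arpp21. Its thymus arrays were spread (8.61, 9.78 and 9.46), and the call was lost without any of 6 of the 7 arrays. Mir687 fell by 1.61 and lies within Rb1, which fell by 1.72. Mir1839 fell by 1.82, a call lost without thymus replicate 38. Mir29a and Mir701 rose by 1.72 and 1.74, with both means at low signal, and each call was lost without 3 or 4 of the arrays. Strands of Mir350 and Mir128-2 are printed for their seeds, which differ from that of miR-181:
mmu-miR-350-3p: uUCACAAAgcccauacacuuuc
mmu-miR-128-3p: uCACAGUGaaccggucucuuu

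**Figure D3:**
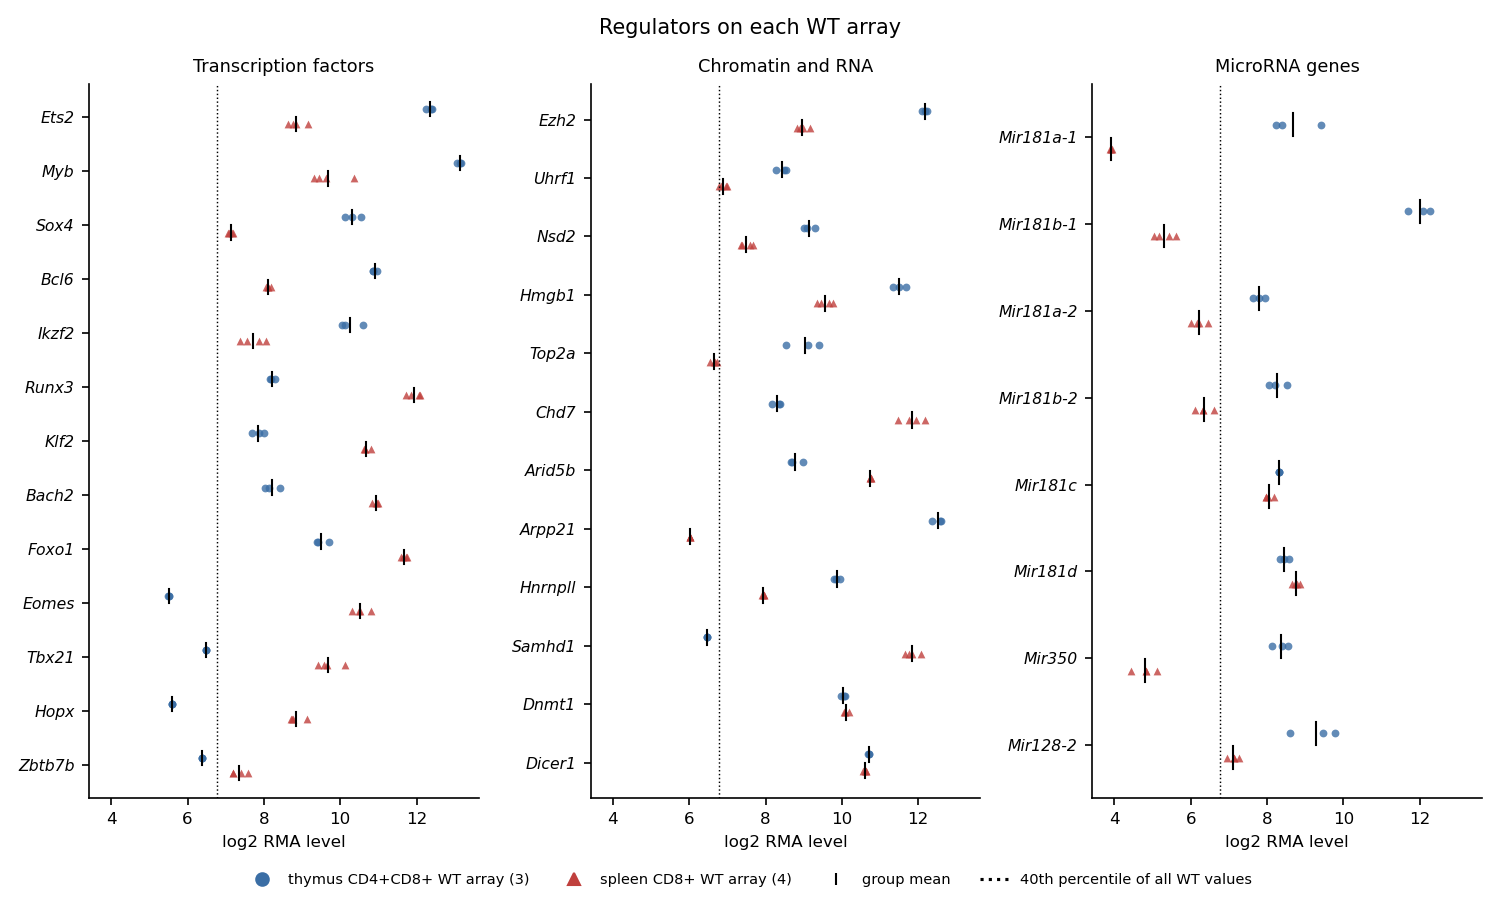
Log2 level (x axis) of transcription factors, chromatin and RNA regulators and microRNA genes on each of 3 thymus (circles) and 4 spleen (triangles) WT arrays, with group means as bars and the low-signal level dotted. Runx3, Klf2 and Chd7 are higher on every spleen array, Ezh2, Myb and the chromosome 1 miR-181 genes lower, and Dnmt1, Dicer1, Mir181c and Mir181d lie close together.

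Few genes of T cell receptor signalling passed the 2-fold test. Of 27 measured genes of the T cell receptor complex and its proximal signalling, 0 rose and 1 fell (3.70%, against 2.4% of all genes). The median difference was -0.07. The gene that fell was Themis, a thymocyte signalling protein, by 1.49. Rasgrp1 (-0.96) and Malt1 (1.28) marked the ends of those that did not pass. Cd3e read 13.28 in thymus and 13.19 in spleen. Negative regulators were divided, with 3 of 33 risen and 2 fallen. The ubiquitin ligases Cbl and Cblb moved in opposite directions, and neither kept its call with the spread between probe sets added. Cbl read 12.91, 12.91 and 12.93 in thymus and 11.26, 11.26, 11.27 and 11.33 in spleen and fell by 1.64, while Cblb read 10.26, 10.29 and 10.20 and 11.98, 12.10, 12.12 and 12.06 and rose by 1.82. Rgs1, which dampens chemokine receptor signals, rose by 3.63 from low signal, and the phosphatase gene Ubash3b by 2.10. Sla, an adaptor that lowers receptor levels in thymocytes, fell from 12.72 to 11.23, with the call lost without any of 4 arrays.

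Several cytokine receptors rose. Of 29 measured genes of the list, 7 rose and 0 fell. Il7r, the survival receptor of naive T cells, read 6.26, 6.11 and 6.26 in thymus and 13.13, 13.10, 13.11 and 13.20 in spleen. Il2rb, the shared chain of the interleukin-2 and interleukin-15 receptors, read 6.25, 6.28 and 6.28 and 11.68, 12.02, 12.41 and 11.88, so that both went from low signal to high levels. Il18r1 rose by 5.02. Il6ra, Il18rap, Il10rb and Il27ra also rose, by 4.08, 3.10, 2.48 and 2.06. Il2ra (-1.43) and Stat5b (-1.15) had lower means without passing. In the TGF-beta list 2 of 19 rose and 0 fell. They were the receptor chain Tgfbr2 (1.83) and the inhibitor Smad7, which read 6.64, 6.80 and 6.76 in thymus and 10.35, 10.58, 10.51 and 10.46 in spleen.

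Modifiers of Notch signalling were among the genes that rose. Of 26 measured genes of the Notch, Wnt and Hedgehog pathways, 4 rose and 2 fell. Lfng, a glycosyltransferase that tunes Notch receptors, read 6.98, 6.99 and 6.99 in thymus and 11.93, 11.70, 11.93 and 12.09 in spleen and rose by 4.93 ± 0.09, or 30.4-fold (adjusted p = 2.1e-07 in limma's test against 2-fold). Its relative Mfng rose by 1.57, Dtx1, a Notch target and ubiquitin ligase, by 2.89, and the coactivator Maml2 by 1.53. Notch1 itself (0.87) and Notch3 (-0.89) did not pass. Smo, the signal transducer of Hedgehog, fell by 2.17 and the Wnt coreceptor Lrp5 by 1.29.

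TNF receptor family and NF-kappaB genes rose in 8 of 30 members and fell in 1, with a median difference of 0.87. Tnfsf8, the ligand of CD30, read 5.13, 5.18 and 5.13 in thymus and 9.76, 9.33, 9.67 and 9.64 in spleen. The adaptors Traf5 and Traf1 rose by 2.84 and 2.50. The member that fell was Fas, the death receptor, at 10.41, 10.43 and 10.51 in thymus and 8.18, 7.95, 8.38 and 8.75 in spleen, while its ligand Fasl rose by 1.97 from low signal. In the list of PI3K, mTOR and nutrient sensing, 2 of 28 rose and 0 fell. Pik3cd, the leukocyte catalytic subunit of PI3K, rose by 3.06 from 8.17 to 11.22, while Pik3cg had a difference of -0.92 that did not pass. Inpp4b rose by 1.91, a call lost without any of 5 arrays.

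Receptors that direct cell traffic rose more often than they fell. Among 19 measured G protein-coupled receptors of lymphocytes, 6 rose and 0 fell. S1pr1, the receptor that lets T cells leave the thymus, read 6.40, 6.55 and 6.55 in thymus and 12.31, 12.02, 12.01 and 12.02 in spleen. Gpr183, an oxysterol receptor that positions lymphocytes in spleen, rose by 4.69 ± 0.14 and Gpr18 by 3.92. Of 17 chemokine receptors, 4 rose and 2 fell, and 6 of them were at low signal in both tissues. Ccr7, which guides cells to the medulla and to T cell zones, read 8.78, 8.55 and 8.32 in thymus and 12.71, 13.09, 12.69 and 12.72 in spleen. Ccr9, the thymic and gut receptor, read 13.45, 13.53 and 13.62 and 10.94, 10.66, 11.09 and 11.56, a fall by 2.47 that left it well above low signal. Ccr4 fell by 3.24. Cxcr3 and Cxcr6, receptors of effector and memory cells, rose by 3.30 and 3.57. Cxcr5, which is also a B cell receptor, rose from 5.73, 5.73 and 5.73 to 8.16, 8.29, 8.39 and 7.61.

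Adhesion molecules rose in 7 of 34 cases and fell in 1. The single fall was Cd24a, a mark of immature lymphocytes, at 12.43 to 12.87 in thymus and 7.79 to 8.33 in spleen. Cd226, a costimulatory receptor, rose by 3.24, Crtam by 3.09, and the integrin chains Itgae and Itgb7, which pair with each other, by 2.77 and 2.78. The major integrin chain Itgal (-0.31) did not pass. Cd96 read 11.99, 7.27 and 11.80 in thymus, with replicate 32 far below the others, and 11.86, 11.39, 11.59 and 11.74 in spleen, and did not pass.

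The Ly6, SLAM and CD1 families were divided evenly, with 6 risen and 6 fallen of 23. Within the SLAM receptors, Slamf1 read 11.48, 11.58 and 11.82 in thymus and 9.14, 9.13, 8.90 and 9.01 in spleen and fell by 2.59, and Slamf7 read 5.41, 5.41 and 5.41 and 8.93, 9.06, 9.37 and 8.86 and rose by 3.65. Among tetraspanins, Cd81 fell by 3.50 from 11.52 to 8.02, and Cd53 and Cd9 rose by 3.48 and 2.56. Cd1d2 fell by 2.64 and Cd1d1, the lipid-presenting molecule that selects NKT cells, by 1.55, and Ly6d by 2.74. Cd1d1 and Cd1d2 are close copies, so that probes may share signal between them.

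Inhibitory receptors and ectoenzymes rose in 6 of 24 cases and fell in 0. Adam19, a membrane protease, rose by 3.30, Nt5e (CD73), which makes adenosine, from 6.46, 6.49 and 6.49 to 9.56, 9.56, 10.10 and 9.57, and the inhibitory receptor Btla by 2.27. Pdcd1, Lag3 and Havcr2, the receptors of chronically stimulated cells, did not pass, with spleen means of 7.30, 6.99 and 6.03. Lag3 had the lower mean in spleen (-1.01). Cd72 had a mean difference of 3.15 and did not pass. Its spleen arrays read 9.97, 10.39, 10.40 and 7.05, with replicate 40 near the low-signal level.

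Receptors of natural killer type rose in 7 of 19 cases and fell in 0. Klrd1 (CD94) read 5.23 in thymus and 10.93 to 11.28 in spleen, and its partner Klrc1 (NKG2A) 4.27, 4.27 and 4.08 and 8.61, 9.00, 9.94 and 8.95. Cd7 rose by 5.04. Of 10 measured natural killer cell markers, 3 rose, and 7 had the higher mean in spleen. Spleen means were above the low-signal level for 7 of the 10, against 2 in thymus. The means of 3 markers, Ncr1 and Klrb1c among them, were at low signal in both tissues. Ncr1 read 5.08 in thymus and 5.01 in spleen, and Klrb1c 5.48 and 4.85. Several killer lectin genes are close copies, so that their probes may share signal.

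Among complement regulators and purinergic and sialic acid receptors, 7 of 26 rose and 2 fell. Cd55, which shields cells from complement, read 3.62, 3.60 and 3.63 in thymus and 9.98, 9.84, 9.84 and 9.82 in spleen, a rise of 6.26 ± 0.05. The complement regulator Cd46 fell by 1.49, so that the pair moved in opposite directions. P2rx1, an ATP-gated channel, fell by 3.07 and its relative P2rx4 rose by 1.47. The tetraspan genes Ms4a4c and Ms4a4b rose by 6.02 and 5.24.

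Guidance molecules fell more often than they rose, 6 against 3 of 25. Plxnd1, a plexin known to be needed for thymocytes to move from cortex to medulla, read 11.62, 11.96 and 11.93 in thymus and 6.97, 6.95, 6.86 and 7.06 in spleen and fell by 4.88 ± 0.09. Plxdc2 and Plxdc1 fell by 5.23 and 3.61, and Sema7a (-3.26), Ephb6 (-2.53) and Nrp1 (-2.02) fell as well. Sema4a rose by 4.04, Sema4f by 2.62 and Rgmb by 1.55. Within the semaphorins the members thus moved both ways. Ion channels and pumps were split too, with 4 risen and 5 fallen of 31. Aqp11, a water channel, fell by 5.60, and Cacna1e, a calcium channel subunit, fell by 2.90. Car12, a carbonic anhydrase, rose by 2.24 while Car2 fell by 1.98. Atp1b3, a sodium pump subunit, rose by 1.95.

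**Figure D4:**
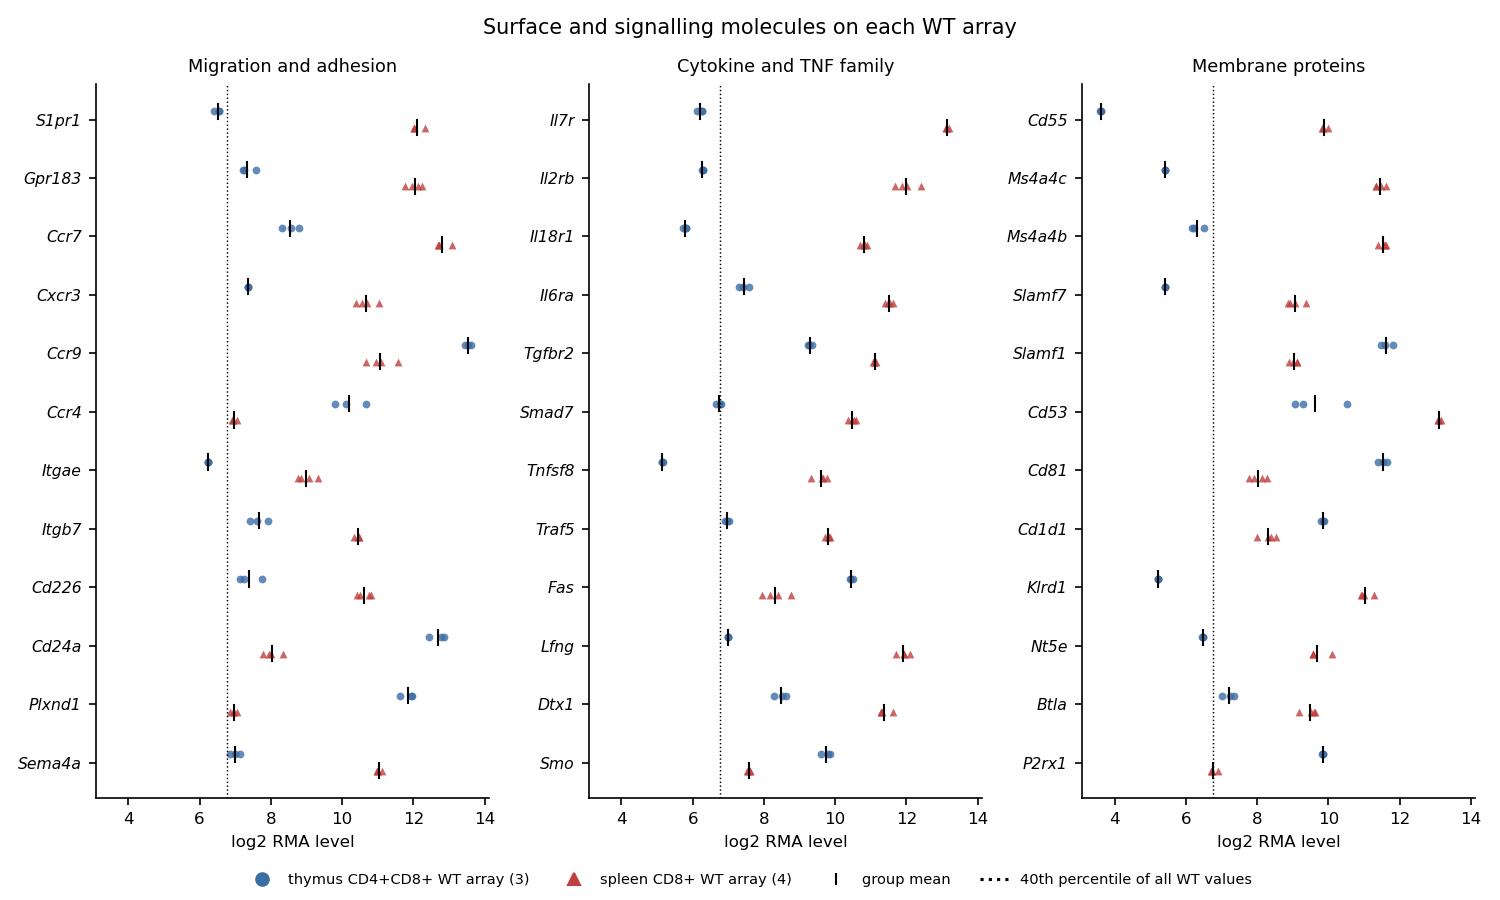
Log2 level (x axis) of genes for migration, cytokine and TNF family signalling and other membrane proteins on each of 3 thymus (circles) and 4 spleen (triangles) WT arrays, with group means as bars and the low-signal level dotted. Il7r, S1pr1, Ccr7 and Cd55 are higher on every spleen array, and Cd24a, Plxnd1, Slamf1 and Cd81 are lower.

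Genes for cytotoxic proteins, chemokines and cytokines rose in 12 of 37 cases and fell in 1. Nkg7, a granule protein, read 6.46, 6.46 and 6.61 in thymus and 13.19, 13.23, 13.43 and 13.26 in spleen, and the chemokine Ccl5 7.40 to 7.70 and 12.79 to 13.40. Cst7, an inhibitor of granule proteases, rose by 4.73 and the protease Ctsw by 4.18. Prf1, the pore-forming protein, rose by 2.41. Granzymes varied. Gzmm rose by 2.23, Gzmk (1.85) and Gzmb (1.49) did not pass, and Gzma had the lower mean in spleen (-1.06), at 8.48, 7.93 and 7.75 in thymus and 6.80, 6.89, 6.89 and 7.40 in spleen. Anxa2, a phospholipid-binding protein, fell by 2.84, while Anxa6 rose by 2.15.

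Type I interferon response genes had the higher mean in spleen in 28 of 30 cases. The median difference was 1.07. By the 2-fold test 5 rose (16.7%, against 2.74% of all genes) and 0 fell. Ifit3 read 6.00, 5.79 and 5.79 in thymus and 7.89, 8.73, 8.99 and 9.07 in spleen, lowest there on replicate 22. Mx1 rose by 2.16 from low signal to 6.75, still low, and Irf1, a factor shared with interferon gamma, by 1.99. Stat2 (-0.51) ran the other way without passing. In the list for MHC class I presentation, 6 of 21 rose and 0 fell, with a median of 0.88. Psme2, an activator of the proteasome, rose by 2.21, and Tapbp, which loads peptide on MHC class I, by 1.79. Psmb9, an immunoproteasome subunit, rose by 1.39, and its call was lost without any of 6 of the 7 arrays. The constitutive subunit Psmb7 (-0.61) had the lower mean and did not pass.

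Promoters were searched for 12 short motifs because genes of a list moved together. The windows run from 250 bases before to 50 after the start of a gene in RefSeq (GRCm38.p6), for 15613 measured genes, and a gene with several windows counted if any held the motif on either strand. Beside the 6 described next, the motifs were CACCC (a core of KLF sites, in 63.5% of all promoters), TGACTCA (an AP-1 site, in 5.41%), GGGACTTTCC (an NF-kappaB site, in 0.179%), AAGATGGCGG (a YY1 site, in 1.49%), TTCNNNGAA (a STAT site, in 8.99%) and GTAAACA (a forkhead site, in 3.54%). By list, TTCNNNGAA was most frequent in Gimap and guanylate-binding genes (6 of 11, 54.5%). TGACTCA was most frequent in Ly6, SLAM and CD1 genes (4 of 14, 28.6%), and GTAAACA in p53 and apoptosis genes (5 of 22, 22.7%). For any motif some list comes first among 41 small lists, and these shares were not tested. GAAANNGAAA, where N is any base, resembles the interferon response element and was present in 3.89% of all promoters. It was present in 13 of 22 interferon genes with a window (59.1%). The next shares were those of Gimap and guanylate-binding genes (3 of 11, 27.3%) and MHC class I genes (3 of 17, 17.6%). TTTGAA, the core of an element of cell cycle genes, was present in 17.3% of all promoters and in 17 of 24 mitosis genes (70.8%), and CCAAT in 41.7% and in 18 of 24 (75%), beside 14 of 18 genes of heat shock, unfolded proteins and the proteasome (77.8%). TTTGGCGC and TTTCGCGC, forms of the E2F site, were present in 0.833% and 0.519% of all promoters and in 5 and 6 of 27 DNA replication genes (18.5% and 22.2%). CACGTG, a site of Myc and its relatives, was in 9.5% of all promoters and in 9 of 22 lysosome and autophagy genes (40.9%). Lower shares were those of ion channels and pumps (8 of 27, 29.6%) and of Ly6, SLAM and CD1 genes (4 of 14, 28.6%). Ribosome biogenesis genes and the list of G1 cyclins, inhibitors and E2F factors each had 6 of 24 (25%). A match is a description of the letters, not a bound site.

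The 120 bases before the start are shown for an interferon gene that rose and for Ifit1, which had a difference of 1.59 and did not pass, with the matches of GAAANNGAAA, read on either strand, in capitals. The windows are chr11:48871421-48871540 (minus strand) and chr19:34640769-34640888 (plus strand).
Irgm1: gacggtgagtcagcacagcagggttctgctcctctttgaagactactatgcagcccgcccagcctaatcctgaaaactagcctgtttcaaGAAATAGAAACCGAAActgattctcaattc
Ifit1: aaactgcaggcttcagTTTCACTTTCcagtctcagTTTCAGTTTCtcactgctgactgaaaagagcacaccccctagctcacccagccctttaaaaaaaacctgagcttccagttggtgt

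Irgm1, a GTPase induced by interferon, read 7.98, 8.17 and 7.83 in thymus and 9.59, 9.25, 9.78 and 9.86 in spleen and rose by 1.63. Both windows hold 2 matches, which overlap in Irgm1. GAAANNGAAA also lies in the 120 bases before the start of Oas1a (0.43), Oas3 (1.21) and Rsad2 (0.80), which did not pass. Ifit1 read 6.30, 7.25 and 6.33 and 7.52, 8.26, 8.26 and 8.82. Its array ranges did not overlap, which was also true of 69.0% of all genes.

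Genes of cell division were lower in spleen. The mitosis list had the lower mean in spleen for 28 of 28 members, a median difference of -1.35, and 13 falls by the 2-fold test. Kif11, a motor of the spindle, read 9.20, 8.99 and 9.73 in thymus and 6.10, 6.18, 6.07 and 6.11 in spleen and fell by 3.19 ± 0.16. Ccnb2, a mitotic cyclin, fell by 2.92 from 10.59 to 7.67, and Mki67, the proliferation mark, by 2.89 from 9.89, 9.78 and 10.27 to 6.96, 7.12, 7.09 and 7.17. Plk1 (-0.76) and Cdc20 (-0.67) were lower without passing. The motif TTTGAA also lies in the windows of Cdc20, Cdk1 (-1.05) and Ncapg (-1.42), which did not pass. Windows of 3 that fell are shown with it, on either strand, in capitals, at chr19:37376262-37376381 (plus), chr7:135716380-135716499 (minus) and chr11:99024190-99024309 (minus).
Kif11: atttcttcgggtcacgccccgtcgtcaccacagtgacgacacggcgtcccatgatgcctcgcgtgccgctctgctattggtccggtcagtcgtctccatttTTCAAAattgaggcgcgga
Mki67: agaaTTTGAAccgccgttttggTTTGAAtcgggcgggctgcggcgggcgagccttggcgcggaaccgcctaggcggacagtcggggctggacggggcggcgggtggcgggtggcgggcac
Top2a: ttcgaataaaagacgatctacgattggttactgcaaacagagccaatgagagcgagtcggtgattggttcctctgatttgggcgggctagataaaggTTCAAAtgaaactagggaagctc

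Counted from the start, the match begins at -19 in Kif11, at -23 in Top2a and, for the farther of 2, at -116 in Mki67. Top2a, the topoisomerase that untangles chromosomes, fell by 2.37, with thymus arrays at 9.13, 8.54 and 9.40 and spleen arrays at 6.55, 6.72, 6.66 and 6.68.

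Fewer replication genes fell. Of 31 measured, 4 fell and 1 rose, with a median of -0.53. Rrm2, a subunit of ribonucleotide reductase, fell by 2.39, and Dck, a kinase of nucleoside salvage, read 11.11, 11.09 and 10.92 in thymus and 8.61, 8.52, 8.66 and 8.91 in spleen. Tyms fell by 1.36, a call lost without any of 6 arrays. Dctd, a deaminase that feeds thymidylate synthesis, rose by 2.50. Pcna read 12.21 in thymus and 12.10 in spleen.

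Regulators of G1 fell more often than they rose, and the D cyclins moved both ways. In the list of G1 cyclins, inhibitors and E2F factors, 10 of 30 fell and 2 rose. The risen genes were Ccnd2 and Myc. Ccnd2 read 7.42, 7.45 and 7.59 in thymus and 12.61, 12.65, 12.65 and 12.74 in spleen, a rise of 5.17 ± 0.06 or 36.1-fold (adjusted p = 3.5e-08 in limma's test against 2-fold). Ccnd3, the D cyclin that early thymocytes need, read 12.36, 12.11 and 12.32 and 10.69, 10.63, 10.66 and 10.47 and fell by 1.65. Myc rose by 3.02 from 8.29 to 11.30. E2f2 (-2.59), E2f8 (-2.58) and Ccne2 (-2.23) fell.

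Repair and recombination genes fell in 6 of 27 cases and rose in 1. Rag2 and Dntt, which adds bases at receptor gene joins, fell by 6.46 and 5.82. Enzymes that join the cut ends were among those that fell. Lig4, the ligase of end joining, read 11.12, 10.87 and 11.10 in thymus and 7.39, 7.10, 7.43 and 7.48 in spleen, and Xrcc6 (Ku70) 10.56, 10.47 and 10.44 and 7.75, 7.63, 7.75 and 7.89. Xrcc5 (Ku80), the partner of Xrcc6, had the higher mean in spleen (0.74) and did not pass. Atm, the damage kinase, rose by 1.30, a call lost without thymus replicates 32 or 38.

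Among p53 targets and apoptosis genes, 3 of 28 rose and 3 fell. Survival genes of the BCL2 family moved in opposite directions. Bcl2l1 (BCL-xL), which keeps CD4+CD8+ thymocytes alive, read 10.87, 10.83 and 10.87 in thymus and 7.95, 7.95, 8.10 and 8.02 in spleen, and Bcl2 read 9.61, 9.04 and 9.27 and 11.72, 11.43, 11.60 and 11.75. They moved by -2.85 ± 0.05 and 2.32 ± 0.14. Mcl1 (-0.44) did not pass. Trp53inp1 fell by 2.46, and Bmf, a death-promoting member, by 1.57. Dapl1, a mark of naive CD8+ cells, rose by 7.29.

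Metabolic lists differed in how many members passed the 2-fold test. Of 33 genes of respiration and mitochondrial biogenesis, 0 rose and 0 fell, and the median difference was -0.04. The ends of its range were Nrf1 (-0.85) and Ppargc1a (0.95, at low signal). In glucose uptake and glycolysis 3 of 26 rose and 1 fell. Ldhb, a lactate dehydrogenase subunit, read 11.42, 11.21 and 11.26 in thymus and 7.47, 7.39, 7.48 and 8.04 in spleen and fell by 3.70 ± 0.16. Ldha, the other main subunit, had a difference of 0.24. Aldoa rose by 1.55, Hk1 by 1.31 and the glucose transporter Slc2a3 by 1.53, the last call being lost without any of 3 arrays.

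Amino acid, one-carbon, polyamine and glutathione genes rose in 6 of 34 cases and fell in 2. Srm, which makes spermidine, read 8.68, 8.22 and 8.34 in thymus and 10.64, 10.59, 10.74 and 10.80 in spleen. The folate enzyme Mthfd1 rose by 2.25 and asparagine synthetase, Asns, by 2.13. Slc7a5, the transporter of large neutral amino acids, rose by 1.98. The 2 falls were transporters. Slc7a11, which imports cystine, read 10.72, 10.86 and 10.42 in thymus and 5.71, 5.52, 5.44 and 5.63 in spleen, and Slc43a1, another carrier of neutral amino acids, fell by 4.11. Ribosome biogenesis and translation genes had the higher mean in spleen in 25 of 29 cases, with a median of 0.60. By the 2-fold test 4 rose and 1 fell. Rps19 rose by 2.51, Polr1b, a subunit of RNA polymerase I, by 1.81 and fibrillarin, Fbl, by 1.63. Wdr12 fell by 1.97.

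Lipid genes were balanced, 2 of 33 risen and 2 fallen. Of the desaturases, Scd2 fell from 12.24, 11.90 and 11.96 to 9.64, 9.06, 9.02 and 9.99 while Scd1 rose from 5.71, 5.71 and 5.71 to 7.92, 7.52, 7.47 and 7.73. Lipa, a lysosomal lipase, fell by 1.90 and Acaca rose by 1.34. Lysosome genes fell in 3 of 26 cases and rose in 1. Cathepsins L and S moved in opposite directions. Ctsl read 12.46, 12.02 and 12.67 in thymus and 8.44, 8.46, 8.27 and 8.63 in spleen and fell by 3.93 ± 0.16, and Ctss read 6.38, 6.40 and 6.40 and 10.04, 10.01, 10.24 and 9.94 and rose by 3.67 ± 0.07. Lamp2 fell by 1.43, a call lost without any of 5 arrays. In the list of heat shock, unfolded protein and proteasome genes, 1 of 23 rose (Hspe1, by 1.70) and 1 fell (Xbp1, by 1.72).

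**Figure D5:**
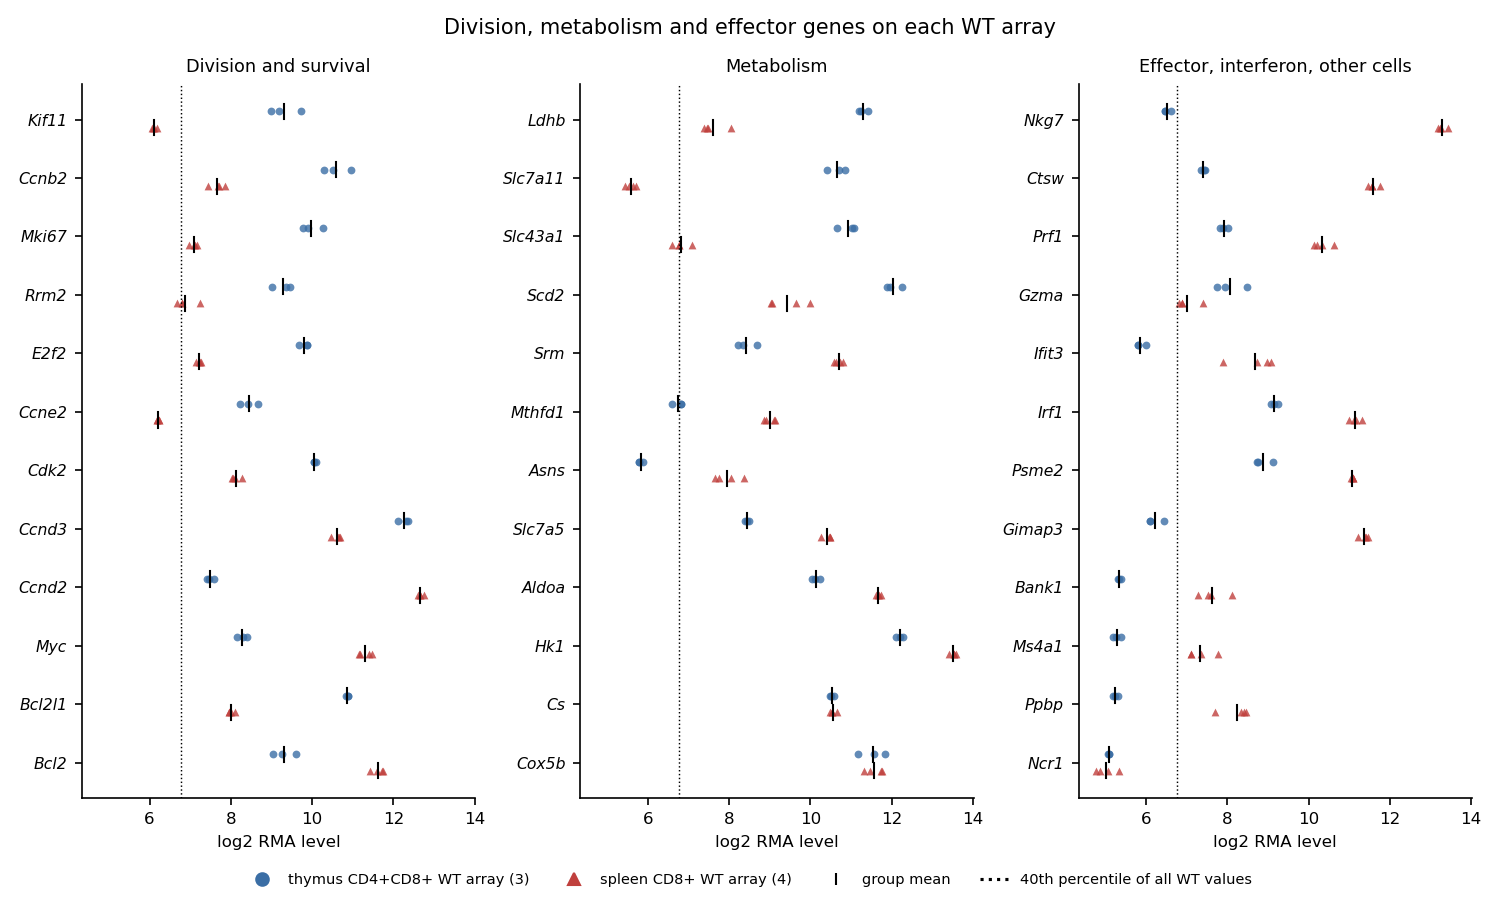
Log2 level (x axis) of genes of division and survival, metabolism, and effector function with marker genes of other cells, on each of 3 thymus (circles) and 4 spleen (triangles) WT arrays, with group means as bars and the low-signal level dotted. Ccnd2 and Ccnd3, and Bcl2 and Bcl2l1, move in opposite directions, and Cs and Cox5b lie together.

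Cytoskeletal genes rose in 5 of 39 cases and fell in 2. Stmn1, which destabilises microtubules, read 12.04, 11.63 and 11.42 in thymus and 7.86, 8.12, 8.26 and 8.41 in spleen, and the tubulin gene Tubb2b fell by 3.25. Rflnb rose by 3.54, Coro2a by 2.66 and the actin-binding Tmsb10 by 2.50. Gimap GTPases, which support lymphocyte survival, and guanylate-binding proteins rose in 6 of 16 cases and fell in 0. Gimap3 read 6.44, 6.10 and 6.09 in thymus and 11.22, 11.39, 11.42 and 11.46 in spleen, and Gimap4 7.60, 7.07 and 7.07 and 11.76, 11.98, 12.09 and 12.00. Gimap7 rose by 2.71, whereas Gimap9 (-0.29) and Gbp8 (-0.58) had lower means and did not pass. Glycosyltransferases rose in 4 of 30 cases and fell in 0. Hs3st3b1, which modifies heparan sulfate, rose by 2.23, the sialyltransferase St3gal6 by 1.71 and Galnt6 by 1.43, and the calls of St3gal6 and Galnt6 were lost without 1 and 6 of the arrays in turn. St3gal1, a sialyltransferase of mature CD8+ cells, had a difference of 1.33 that did not pass.

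Genes outside the lists were also among those with large differences. Slfn1, a gene of the Schlafen family, rose by 5.02, the long noncoding RNA Lncpint by 4.94, Tagap, a GTPase-activating protein, by 4.64 and Ifi214 by 4.58. Those that fell included F13a1, a coagulation factor subunit (-4.66), Tdrd5 (-4.60), Marcks (-4.54), Tube1, the epsilon tubulin (-4.32), Spo11, the enzyme that cuts DNA in meiosis (-4.19), Ldlrad3 (-4.13), Endou (-3.98), Cdca7 (-3.81) and Iftap (-4.78). Spo11 read 10.84, 10.91 and 10.61 in thymus and 6.57, 6.48, 6.70 and 6.65 in spleen, and Tdrd5, another gene known from germ cells, 10.61, 10.84 and 11.09 and 6.25, 6.19, 6.19 and 6.38. Thymus arrays lay clearly above low signal for both, and spleen arrays below it. With both means above low signal, Dhrs3, a retinal reductase (-5.01), the antisense gene Dgkeos (-3.87) and Wdr78 (-3.81) fell.

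Some genes that changed together are neighbours. Of 19915 measured genes with a position in the RefSeq table, 15 runs of at least 3 adjacent measured genes all passed the 2-fold test in the same direction, 8 higher and 7 lower. The longest, on chromosome 19, held Ms4a4a, Ms4a4c, Ms4a4b, Ms4a6c, Ms4a6b, Ms4a4d and Ms4a6d, which rose by 1.91 to 6.02. On chromosome 6, Klrd1, Klrk1, Klrc3, Klrc2 and Klrc1 rose by 2.57 to 5.81. On chromosome 1, Ifi206, Ifi214 and Ifi213 rose by 3.36 to 4.58, and Ly9, Slamf7 and Cd48 by 1.16 to 3.65. Iftap, Rag2 and Rag1 fell together on chromosome 2, and Dclk2, Cd1d2 and Cd1d1 on chromosome 3. A run on chromosome 4 held Tctex1d1, Insl5, Wdr78, Mier1 and Slc35d1, with differences of -3.81 to -2.11. Many Ms4a, Klr and Ifi genes are close copies, so that probes may share signal.

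Markers of other cells were not absent in spleen. Of 13 measured B cell and plasma cell markers, 11 had spleen means above the low-signal level, against 5 in thymus, and 4 rose. Bank1 read 8.12, 7.27, 7.52 and 7.60 on the spleen arrays against 5.32, 5.34 and 5.38 in thymus, Ms4a1 7.76, 7.10, 7.35 and 7.11 against 5.18, 5.38 and 5.27, Cd79a 8.15, 7.47, 7.77 and 7.49 against 5.73, 6.16 and 5.91 and Cd22 7.82 to 8.28 against 6.49, 6.63 and 6.49. The B cell list's summed level, as log2, was 11.16 to 11.56 in spleen, highest on replicate 22, and 10.85 to 10.95 in thymus, and 3 of the 4 genes were highest on replicate 22. MHC class II genes, which B cells and other antigen-presenting cells express and which were chosen here after their values were seen, rose too: H2-Aa by 2.59, with spleen arrays at 9.42, 8.70, 8.70 and 8.77, Cd74 by 2.52 and H2-Ab1 by 2.08. Pax5 (7.40 in spleen), Blnk (6.57) and Vpreb3 (6.79) did not pass. Ppbp, a platelet gene, rose by 2.99 and Alas2, an erythroid gene, by 1.98, each the only member of its list to do so, of 7 and 6. The summed platelet level was 10.53 to 10.62 in spleen and 10.12 to 10.39 in thymus, and the erythroid 10.44 to 10.68 and 10.01 to 10.16. Of 15 myeloid and 15 stromal markers, 0 rose and 0 fell, with summed myeloid levels of 11.06 to 11.30 in spleen and 10.60 to 10.69 in thymus. Natural killer markers summed to 11.37 to 11.70 in spleen and 9.69 to 9.89 in thymus, with Eomes, Klrk1 and Cd160 risen and Ncr1 and Klrb1c at low signal. Of the 10 measured, 7 had spleen means above the low-signal level, against 2 in thymus. The part of other cells in the values of genes they share with CD8+ T cells, among them Cxcr5, Cd72, Ctss, Cd9 and Cd22, was not tested.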

How the data were processed

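The deposited table holds log2 levels for 28213 probe sets, made with RMA by the authors per the submitters' processing notes; the sources used here do not name the software or say which arrays were processed together. Values were used as deposited. Of the probe sets, 21640 carried 1 gene symbol in the platform annotation, 1321 several and 5252 none, and only the first were named. For genes with several probe sets (954) the set with the highest mean was kept, leaving 19937 genes. The 7 WT arrays were fitted without a filter in limma 3.58.1 (R 4.3.3), with a variance trend, against 0 and, with treat, against 2-fold, each Benjamini-Hochberg adjusted at 0.05. Members, the 41 lists and the 11 marker lists were chosen with earlier results of these data known. Of 1152 list genes, 1062 were measured. Named genes were up to 3 members per list and direction with the largest differences past a test, ranks 11 to 25 each way counted without predicted genes, the 10 largest each way with both means above low signal, microRNA genes past the 2-fold test and landmark genes; other names were chosen after values were seen. The fit was tested on simulated data. Alternatives covered filters, normalization, probe set choice, variance settings, sex, the ENK KO arrays and leaving out each array. The number of arrays limits precision.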

Additional observations from a re-analysis of the deposited data

Results flagged for a closer look

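On the 4 spleen arrays, 25 of the 299 genes named had 1 array whose gap to the nearest other, as a share of the range, exceeded Dixon's critical value (ranges under 0.1 not looked at). For independent, normally distributed values chance gives about 1 in 20 such groups. Repeated values on these arrays break that condition, so the rate need not hold here. The 299 include the genes that were not looked at, and the cause of each gap was not tested. Values are log2 levels, with the range of the other 3 arrays after each.

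Cd72, a receptor best known from B cells, had the widest gap in log2 units, at 7.05 on replicate 40 against 9.97 to 10.40. Replicate 40 was also low for Uty (9.53 against 9.68 to 9.71), Slc7a5 (10.27 against 10.46 to 10.48) and Ncapg (5.74 against 5.90 to 5.92). It was high for Ldhb (8.04 against 7.39 to 7.48), Gzma (7.40 against 6.80 to 6.89), Dtx1 (11.62 against 11.28 to 11.30), Ccr4 (7.06 against 6.92 to 6.94), Havcr2 (6.15 against 5.99 to 6.01) and Mir181c (8.19 against 7.98 to 8.01).

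Replicate 37 was high for Nt5e (10.10 against 9.56 to 9.57), Hopx (9.14 against 8.70 to 8.75), Id3 (8.19 against 7.61 to 7.71), Hs3st3b1 (9.58 against 9.22 to 9.27), Klf2 (10.81 against 10.64 to 10.65) and Ly9 (11.40 against 11.29 to 11.31).

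Replicate 22, whose sex label did not match, was high for the MHC class II genes Cd74 (10.08 against 9.32 to 9.41) and H2-Aa (9.42 against 8.70 to 8.77) and for S1pr1 (12.31 against 12.01 to 12.02), Cd55 (9.98 against 9.82 to 9.84), Blnk (6.77 against at most 6.52) and P2rx1 (6.89 against 6.71 to 6.74) and low for Car2 (7.26 against 7.67 to 7.74). Replicate 34 was high for Ccr7 (13.09 against 12.69 to 12.72) and Fbl (10.49 against 10.30 to 10.31).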

How the results depend on the processing

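No direction reversed among the 261 genes named by rule under the alternatives run, and no list median over 0.1 in size changed sign. Filters, the probe set spread and the ENK KO arrays leave each gene's difference unchanged, so they could not reverse it. The named genes were also picked mostly for large differences. The gene counts are taken by direction and could not reverse. Filters on low values left 4095 higher and 5147 lower genes (40th percentile) and 2827 higher and 3986 lower genes (60th percentile) against 0, where 6400 and 6638 passed without a filter, since fewer genes were tested. An unadjusted p under 0.05 with at least 1.5-fold gave 2069 and 2165. The spread between probe sets, added after the data were seen, left 1104 higher and 1045 lower genes against 0, 246 and 201 against 2-fold, and 152 of the 246 list members. Leaving out each array in turn gave 5654 to 6298 higher and 5949 to 6973 lower genes against 0, 465 to 537 and 423 to 460 against 2-fold, and 220 to 237 list members. Of 182 named genes past the 2-fold test, 49 lost the call with the probe set spread, 19 with arrays labelled male alone and 6 to 12 without a single array. No paired analysis was possible because the thymus and spleen samples share no replicate number. Separate summarisation of the tissues could not be undone from these values, and genes near or under the low-signal level have differences limited by signal over background.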
